A study of Homo sapiens with 8 samples.

Results

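The ubiquitin-specific proteases other than USP6 were followed in RD-ES, a human Ewing sarcoma cell line, in which USP6 had been placed under doxycycline control. Members were chosen by a rule on the gene symbol, with earlier results of these data known. The rule took every symbol made of USP and a digit, without USP6, its parent gene USP32 and the interferon-stimulated USP18. There were 52 such symbols among the 22257 in the deposited count table, and where a symbol had several transcript rows the row with the most reads stood for it. USP41, a near copy of USP18, was not analysed here. USP6NL carries the symbol but is a GTPase-activating protein and not a protease.

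RNA was sequenced from 4 groups of 2 libraries each. Doxycycline plus interferon cells had USP6 induced for 24 h and were then given interferon alpha at 1000 U/mL for 24 h. Doxycycline cells had USP6 induced without interferon, interferon cells received interferon alpha without doxycycline, and untreated cells received neither. All groups were the same transgenic pool, not a clone, so every library came from cells carrying the inducible gene. How long the doxycycline cells without interferon were kept on the drug is not stated, and with no doxycycline-treated cells lacking the transgene the effects of USP6 and of the drug cannot be told apart. Nothing in the labels tells whether the 2 replicates of a group were grown as separate cultures, and a p-value here therefore reflects the spread among these libraries, which may be technical.

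Ubiquitin-specific proteases are the largest family of deubiquitinases, cysteine proteases that cut ubiquitin from other proteins or from ubiquitin chains. By doing so they reverse the work of ubiquitin ligases: they can spare a protein from the proteasome, return a receptor from the endosome to the cell surface, remove ubiquitin from histones, or switch off signalling that runs through ubiquitin chains. Type I interferon induces USP18, which removes the ubiquitin-like protein ISG15 and dampens interferon receptor signalling, and several other members are known to act on RNA sensors, on STING or on NF-kB.

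Depth ran from 9304569 to 11984196 reads per library over one row per symbol, so that 3 reads were worth 0.25 to 0.326 CPM (reads scaled to a common library size). The members held 0.541 and 0.558% of reads in doxycycline plus interferon cells, 0.529 and 0.553% in doxycycline cells, 0.537 and 0.55% in interferon cells, and 0.515 and 0.536% in untreated cells. All 8 Ewing sarcoma markers had reads in all 8 libraries, with CCK at 221 to 276 CPM and FLI1 at 49.4 to 61.2 CPM, but CD99, the usual surface marker of this tumour, was only at 2.22 to 3.06 CPM. The muscle factor MYOD1 had no read, and the leukocyte gene CD3E and the endothelial gene PECAM1 reached at most 0.0956 and 0.101 CPM. USP6 averaged 393 CPM in doxycycline plus interferon cells, 563.4 in doxycycline cells, 9.75 in interferon cells and 9.32 in untreated cells. In bulk RNA, fewer cells of a type and less RNA per cell cannot be told apart.

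Most of the family was expressed, and at steady levels. Of the 52 members, 47 passed the filter on low counts and were tested with edgeR's quasi-likelihood test among 14601 genes. USP17 and USP17L6P had no read in any library, USP29 had 1 read and USP26 3 reads over all 8 libraries, and USP17L2 had 60 reads. USP26 and USP29 are known as testis or germline genes, and the USP17 genes belong to a repeated cluster of near-identical copies whose reads the counting could split.

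**Figure D1:**
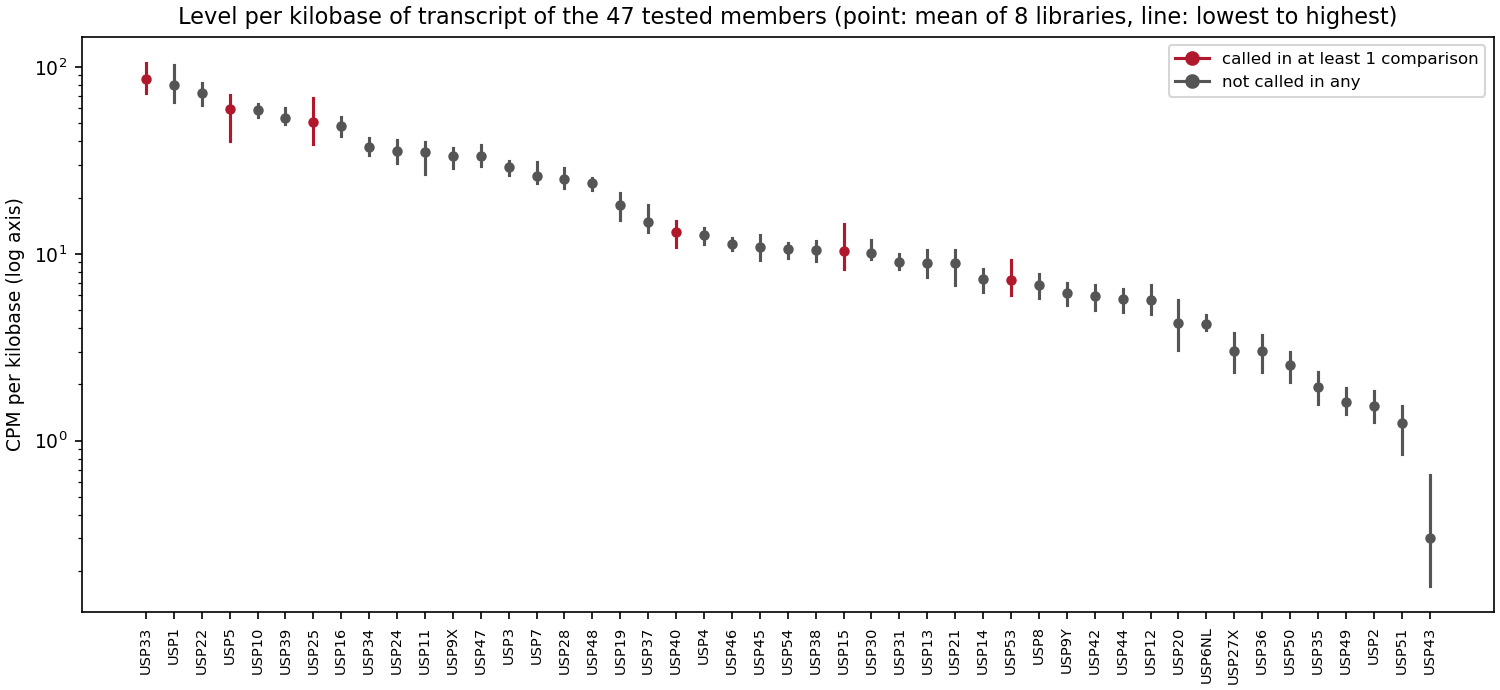
Level of each of the 47 tested members as CPM per kilobase of transcript (log axis), with the point at the mean of 8 libraries and the line from the lowest to the highest library. The members run from USP33 at 86.5 down to USP43 at 0.30, and the 6 members in red were called in at least 1 comparison.

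Levels between genes were compared as CPM per kilobase of transcript, averaged over the 8 libraries. USP33 stood highest with 86.5, followed by USP1 with 79.8, USP22 with 72.4, USP5 with 59.3 and USP10 with 59.1. The ranges of the first neighbours in this order overlapped over the libraries, with USP33 at 72.5 to 105 and USP1 at 65.1 to 102. At the other end of the tested members stood USP43 with 0.30, USP51 with 1.24, USP2 with 1.54 and USP49 with 1.62. The median of the tested members was 10.7 CPM per kilobase, and that of all tested genes was 9.03. The plot of levels per kilobase shows that the lines of neighbouring members overlapped along most of this order.

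The clearest differences stood between cells given both treatments and untreated cells. USP25, USP15, USP33, USP53 and USP40 rose and USP5 fell at a Benjamini-Hochberg adjusted p under 0.05 (edgeR quasi-likelihood test), so 6 of 47 members were called. Across all tested genes 13.9% were called in the same comparison, a share close to that of the members. In all, 15 of the 47 members had an unadjusted p under 0.05, as did 4398 of all 14601 tested genes. The median log2 fold change of the members was 0.12 and that of all genes was −0.02. DESeq2 called 6 members as well, 4 higher and 2 lower, with USP1 in place of USP40. Fewer members were called without doxycycline plus interferon replicate 1, interferon replicate 2 or either untreated library. More were called without doxycycline plus interferon replicate 2. The shares of all genes called by DESeq2 or with a library left out are not given here, so these changes allow no reading about the members.

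**Figure D2:**
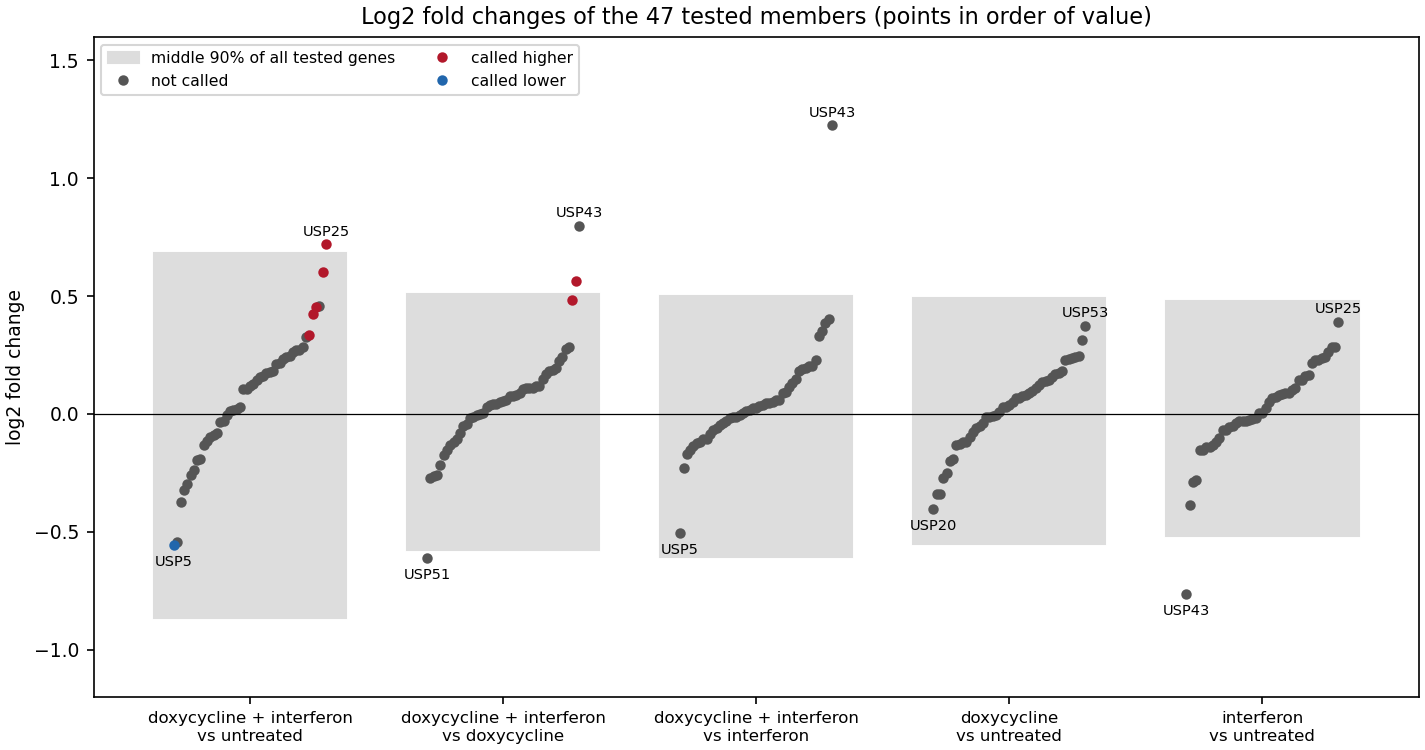
Log2 fold change of the 47 tested members in 5 comparisons, sorted by value, with the middle 90% of all 14601 tested genes as grey boxes and called members in red (higher) or blue (lower). With both treatments against none, 5 members are called higher and 1 lower, with doxycycline plus interferon against doxycycline 2 higher, and no member is called in the other comparisons shown.

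USP25, a protease known to act on TRAF adaptor proteins downstream of RNA sensors and of the interleukin 17 receptor, had the largest rise. Its level was 271 and 246 CPM in doxycycline plus interferon cells, 196 and 174 CPM in doxycycline cells, 205 and 206 CPM in interferon cells, and 153 and 161 CPM in untreated cells. Both libraries with both treatments lay above all 6 others, and both untreated libraries lay below all others. The log2 fold change of USP25 with both treatments against none was 0.72 ± 0.09 (SE, n = 2 libraries a group), with an adjusted p of 0.00042 by edgeR. The call held when each library was left out in turn, with log2 fold changes from 0.66 to 0.79.

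USP15, which is known to act on SMAD and TGF-beta receptor signalling and on the ubiquitin ligase TRIM25 in RNA sensing, had 216 and 184 CPM in doxycycline plus interferon cells, 140.2 and 130.0 CPM in doxycycline cells, 158 and 147 CPM in interferon cells, and 124 and 140.0 CPM in untreated cells. The libraries with both treatments again lay above all 6 others, and the doxycycline and untreated libraries overlapped. The log2 fold change of USP15 with both treatments against none was 0.60 ± 0.10 (SE), with an edgeR adjusted p of 0.004. It stayed between 0.49 and 0.71 with each library left out, and the call held each time.

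The sequences upstream of USP25 and USP15 are shown because these were the members called in more than 1 comparison and higher together. They are the 250 bases before the annotated start in RefSeq on GRCh38.p14, at chr21:15729732-15729981 (plus strand) for USP25 and chr12:62260154-62260403 (plus strand) for USP15. Capitals mark GC boxes, the letters GGGCGG on either strand, to which SP-family factors are known to bind.
USP25: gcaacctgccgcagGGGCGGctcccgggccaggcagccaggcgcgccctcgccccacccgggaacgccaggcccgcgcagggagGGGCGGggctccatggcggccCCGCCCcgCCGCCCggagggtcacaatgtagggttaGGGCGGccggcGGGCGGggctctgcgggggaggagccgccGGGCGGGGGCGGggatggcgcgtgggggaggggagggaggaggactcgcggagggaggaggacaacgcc
USP15: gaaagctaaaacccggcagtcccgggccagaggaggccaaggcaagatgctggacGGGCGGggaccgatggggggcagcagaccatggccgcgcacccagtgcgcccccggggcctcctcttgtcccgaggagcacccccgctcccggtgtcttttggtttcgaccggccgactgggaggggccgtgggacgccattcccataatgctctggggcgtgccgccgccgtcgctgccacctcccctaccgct
The USP25 stretch was 80.8% G or C with 8 GC boxes, and the USP15 stretch was 70.4% with 1, against a median of 58.0% over the first 250 bases of 35116 RefSeq promoter windows of 300 bases. Windows were found for 38 of the 52 members, 51 windows in all. The core of the interferon-stimulated response element, searched on both strands as GAAANNGAAA, was in 0 of the 51 member windows and in 3.57% of all windows. The STAT dimer site, searched as TTCNNNGAA, reads the same on both strands. It was in 3 of the 51 member windows (USP7, USP27X and USP29) and in 7.66% of all windows. GC boxes were in 37 of the 51 member windows, which belonged to 33 of the 38 members, and in 15786 of the 35116 windows overall. These counts say only which letters lie in these windows.

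USP33, a protease anchored in the endoplasmic reticulum and known to recycle the beta-2 adrenergic receptor, had 473 and 406 CPM in doxycycline plus interferon cells, 432 and 382 CPM in doxycycline cells, 384.0 and 383.9 CPM in interferon cells, and 327 and 328 CPM in untreated cells. All 6 treated libraries lay above the untreated ones. The log2 fold change with both treatments against none was 0.43 ± 0.10 (SE), with an edgeR adjusted p of 0.017. Without doxycycline plus interferon replicate 1 or either untreated library the adjusted p rose above 0.05, to at most 0.086, and over all libraries left out the log2 fold change ran from 0.32 to 0.53.

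USP53, long described as lacking the catalytic residues and known as a partner of tight junctions, had 55.1 and 45.3 CPM in doxycycline plus interferon cells, 49.2 and 45.9 CPM in doxycycline cells, 39.2 and 36.7 CPM in interferon cells, and 35.5 and 37.9 CPM in untreated cells. All 4 doxycycline-treated libraries lay above the 4 without doxycycline. With both treatments against none its log2 fold change was 0.45 ± 0.13 (SE), with an edgeR adjusted p of 0.037. The call was lost without doxycycline plus interferon replicate 1, either interferon library or either untreated library, at log2 fold changes from 0.31 to 0.59 over all left out and an adjusted p of at most 0.22.

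USP40 had 84.4 and 79.3 CPM in doxycycline plus interferon cells, 66.7 and 71.8 CPM in doxycycline cells, 79.3 and 78.6 CPM in interferon cells, and 68.4 and 61.3 CPM in untreated cells. Its 4 interferon-treated libraries lay above the 4 without interferon. The log2 fold change with both treatments against none was 0.34 ± 0.10 (SE), with an edgeR adjusted p of 0.042. The call held without doxycycline plus interferon replicate 2, and leaving out any of the other 7 libraries gave an adjusted p over 0.05, up to 0.2, at log2 fold changes from 0.26 to 0.42. DESeq2 gave USP40 an adjusted p of 0.061.

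USP5 was the member that fell. It takes apart unanchored ubiquitin chains and so refills the pool of free ubiquitin. Its level was 127 and 172 CPM in doxycycline plus interferon cells, 159.9 and 187 CPM in doxycycline cells, 206 and 218 CPM in interferon cells, and 225 and 214 CPM in untreated cells. The 4 doxycycline-treated libraries lay below the 4 others, and the replicates with both treatments lay farther apart than those of any other group. The log2 fold change with both treatments against none was −0.56 ± 0.13 (SE), with an edgeR adjusted p of 0.02. Without doxycycline plus interferon replicate 1, interferon replicate 2 or either untreated library the call was lost, at log2 fold changes from −0.79 to −0.35 over all left out and an adjusted p of at most 0.16.

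**Figure D3:**
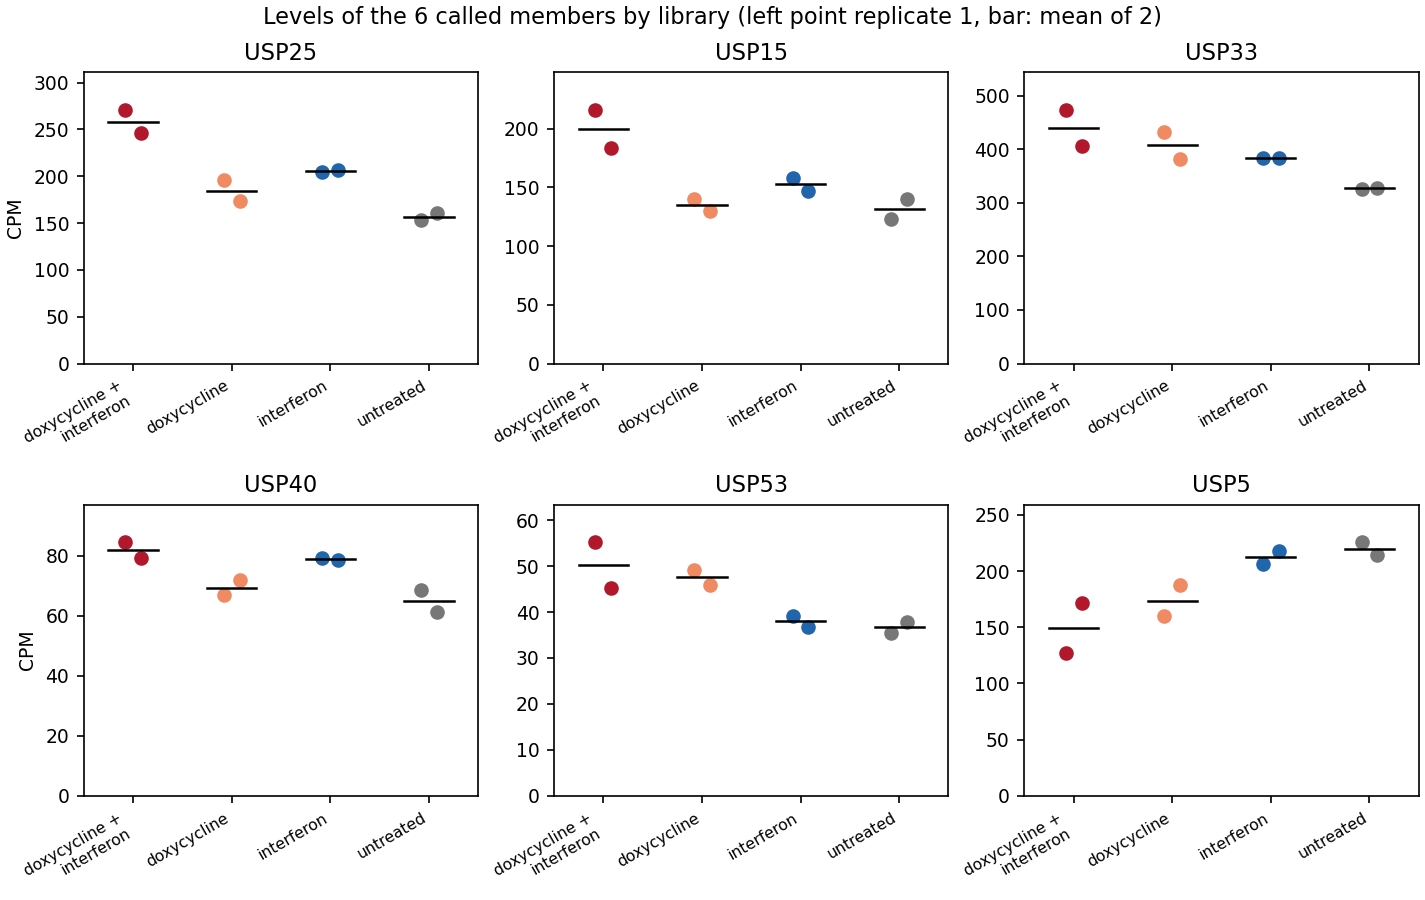
CPM of the 6 called members in each of the 8 libraries (axes start at 0), with replicate 1 left of replicate 2 and a bar at the mean of each group. USP25 and USP15 are highest in both doxycycline plus interferon libraries, while the USP53 and USP5 libraries divide by doxycycline and the USP40 libraries by interferon.

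Base composition moved with these results. The deviation of a library from the mean of all libraries followed the GC content of transcripts with a Spearman correlation of −0.64 and 0.05 in the doxycycline plus interferon libraries, −0.48 and 0.35 in the doxycycline libraries, 0.31 and 0.03 in the interferon libraries, and 0.58 and 0.12 in the untreated libraries. Over the 47 members, the Spearman correlation between GC content and log2 fold change with both treatments against none was −0.46, a description over genes that share the same libraries. Over the 12353 genes of known GC content not called in this comparison it was −0.45, so the trend was not particular to the members. The members that rose had transcripts of 36.5% GC (USP15), 37.1% (USP53), 39.9% (USP33), 43.4% (USP25) and 48.3% (USP40), and USP5, which fell, had 57.8%. The median was 43.7% for the tested members and 48.8% for all tested genes.

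With the trend on GC content and length removed from each library, all 6 members kept their direction and their call. USP25 then had a log2 fold change of 0.54, USP15 0.41, USP53 0.26, USP40 0.25, USP33 0.23 and USP5 −0.45. The members called became 12, 5 higher and 7 lower, against 5 higher and 1 lower without the correction. All genes called became 21.6%, 1162 higher and 1989 lower of 14601, against 1040 higher and 983 lower without the correction. The added lower members were USP51 (−0.72), USP1 (−0.56), USP13 (−0.47), USP37 (−0.45), USP7 (−0.36) and USP22 (−0.19). The correction took the median of the members to 0.02 and that of all genes to −0.06. The part of base composition in the uncorrected differences was not tested further.

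**Figure D4:**
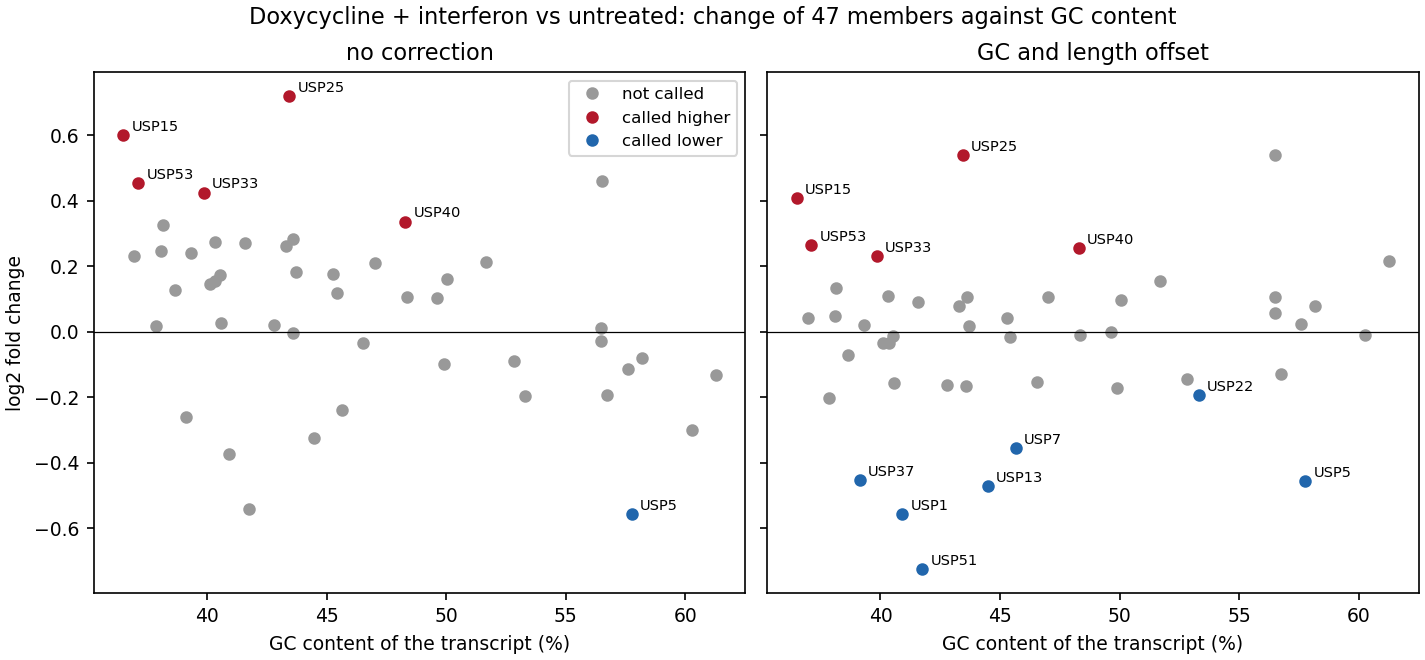
Log2 fold change of the 47 tested members with both treatments against none, plotted against the GC content of the transcript in percent, without correction (left) and with the GC and length trend removed (right). The trend seen on the left has a Spearman correlation of −0.46 and that on the right one of −0.0013, and on the right USP25 and USP15 remain called higher and the lower calls number 7. Without correction the 12353 genes not called (not plotted) have a correlation of −0.45.

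Close relatives of the called members were set beside them by sequence family, with differences between relatives not tested. USP28, the closest relative of USP25 and a regulator of MYC and p53 stability, had a log2 fold change of 0.28 ± 0.09 (SE) with both treatments against none and an edgeR adjusted p of 0.066. It was chosen after its value was seen. Without doxycycline plus interferon replicate 2 USP28 was called higher (adjusted p 0.035) and USP11 lower (0.049). USP4 and USP11, the relatives of USP15, had 0.10 ± 0.12 and −0.19 ± 0.15. USP20, the relative of USP33, had −0.30 ± 0.24, USP54, the relative of USP53, had 0.16 ± 0.10, and USP13, the relative of USP5, had −0.32 ± 0.11 with an adjusted p of 0.067. With 1 library left out USP20 ran from −0.63 to −0.016 (without doxycycline plus interferon replicate 2 and 1), USP11 from −0.46 to 0.045 (without the same), and USP4 from 0.00055 to 0.22 (without untreated replicate 1 and 2).

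**Figure D5:**
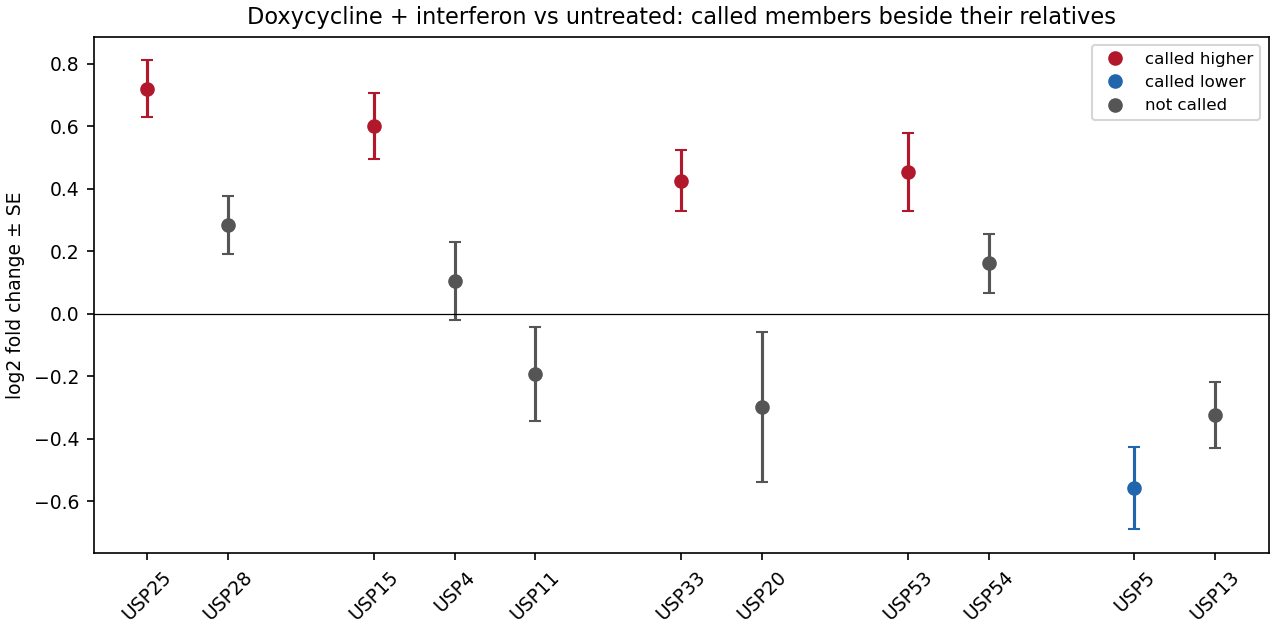
Log2 fold change with its SE (edgeR, n = 2 libraries a group) of 5 called members and their closest relatives with both treatments against none. USP25 (0.72), USP15 (0.60), USP33 (0.43) and USP53 (0.45) lie above their relatives and USP5 (−0.56) below USP13 (−0.32), differences that were not tested.

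By role, with both treatments against none, every count is to be read against the 13.9% of all genes called, and groups this small allow no reading of a share near it. Counts at an unadjusted p under 0.05 stand beside the 4398 of all 14601 genes given above. A member may stand under several roles. Of 13 members tied to RNA sensing, STING, TBK1, STAT or NF-kB signalling, USP15 and USP25 rose and the other 11 were not called, a share near that of all genes, with a median log2 fold change of 0.10 over the group. The other leading member by level there, USP10, had 176 to 190.4 CPM with both treatments and 167.5 to 173 CPM untreated, a log2 fold change of 0.11 ± 0.08. Of 4 members tied to TGF-beta and SMAD signalling, USP15 rose. USP9X, which removes ubiquitin from SMAD4, had 0.17 ± 0.11, and USP11 had the −0.19 given above.

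Among 3 members tied to the proteasome and to free ubiquitin chains, USP5 fell. USP14, which trims ubiquitin on the proteasome itself, had a log2 fold change of 0.33 ± 0.12 and an edgeR adjusted p of 0.1, so that the 3 members did not share a direction. Of 5 members tied to the cell cycle USP33 rose, and USP16, a histone H2A deubiquitinase needed for mitosis, had 0.02 ± 0.12. Of 4 members reported as inactive USP53 rose, and USP39, a splicing factor of the tri-snRNP, had −0.10 ± 0.11. USP33 was also the member that rose among 3 anchored in membranes, beside USP19 with −0.08 ± 0.16, and among 6 tied to endosomes and receptor traffic. Of 3 members tied to splicing USP15 rose, beside USP4 and USP39.

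None of the 9 chromatin members was called by edgeR at an adjusted p under 0.05, a count that says little beside 13.9% of all genes. USP51, with −0.54 ± 0.22, had an unadjusted p under 0.05. USP22, the deubiquitinase of the SAGA coactivator complex, had a log2 fold change of −0.20 ± 0.10. None of the 7 members tied to DNA repair and replication stress was called, with 3 at an unadjusted p under 0.05. USP1, which together with WDR48 takes ubiquitin off FANCD2 and PCNA, had 309 and 260.1 CPM in doxycycline plus interferon cells, 344 and 298 CPM in doxycycline cells, 274 and 329 CPM in interferon cells, and 328 and 409 CPM in untreated cells. Its log2 fold change with both treatments against none was −0.37 ± 0.14 with an adjusted p of 0.091 by edgeR and 0.046 by DESeq2.

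None of 4 tested members tied to p53 and MDM2 was called by edgeR, with 0 at an unadjusted p under 0.05. USP7, which stabilises MDM2 and p53, had −0.24 ± 0.11. None of 3 members that WDR48 activates was called by edgeR, with 1 at an unadjusted p under 0.05, and USP46 had 0.03 ± 0.10. Of 5 members listed here as testis-restricted or single-exon genes 3 were tested and none was called by edgeR. USP51, given above, was again the 1 at an unadjusted p under 0.05. USP44, which stood at 15.4 to 20.5 CPM over the libraries in spite of this listing, had 0.24 ± 0.14, and USP50 had 0.18 ± 0.26. Of the members of these 5 roles DESeq2 called USP1, which stands under DNA repair and under WDR48. With the GC and length trend removed, edgeR called USP1 (adjusted p 0.00077), USP7 (0.013), USP51 (0.024) and USP22 (0.031) lower. Of all genes 21.6% were called there, 1162 higher and 1989 lower.

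Interferon in USP6-induced cells was the other comparison with calls. In doxycycline plus interferon cells against doxycycline cells, USP15 rose with a log2 fold change of 0.56 ± 0.10 (adjusted p 0.01) and USP25 with 0.48 ± 0.09 (adjusted p 0.011) by edgeR, and DESeq2 called the same 2 members. That was 2 of 47 members, a share near the 3.33% of all genes called. An unadjusted p under 0.05 was found for 7 members and for 2265 of all 14601 genes. USP18, left out of the members, had 63.3 CPM with both treatments and 12.9 CPM with doxycycline on average, a log2 fold change of 2.29. Without doxycycline replicate 2 neither USP15 nor USP25 was called, and without doxycycline plus interferon replicate 1 USP15 was not called; over all libraries left out the log2 fold change of USP15 was 0.46 to 0.69 and that of USP25 0.40 to 0.57. With the GC and length trend removed, USP15 (0.49) and USP25 (0.41) were called higher and USP13, USP30 and USP51 lower. Of all genes 10.1% were called there, 719 higher and 749 lower.

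The highest member of that comparison by value was USP43, with 0.80 ± 0.46, and the lowest were USP51 (−0.61 ± 0.22), USP13 (−0.27 ± 0.11) and USP2 (−0.26 ± 0.21), none of them called. USP51 had −0.40 and USP2 −0.16 without doxycycline plus interferon replicate 1. USP43 rested on few reads: 10 and 25 in doxycycline plus interferon cells, 12 and 13 in doxycycline cells, 7 and 9 in interferon cells, and 13 and 16 in untreated cells. Its high value came from 1 library, and without doxycycline plus interferon replicate 2 its log2 fold change was −0.045.

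USP6 induction in interferon-treated cells gave no call in the edgeR fit used throughout, and calls of USP5 and USP15 under some other settings. In doxycycline plus interferon cells against interferon cells, 0 of 47 members were called by edgeR, against 1.34% of all genes. An unadjusted p under 0.05 was found for 7 members and for 2170 of all 14601 genes. DESeq2 called 1, USP5, with an adjusted p of 0.017. The largest values were USP43 (1.22 ± 0.50), USP53 (0.40 ± 0.13) and USP15 (0.39 ± 0.10), and the lowest were USP5 (−0.51 ± 0.13), USP20 (−0.23 ± 0.24) and USP13 (−0.17 ± 0.11). The edgeR adjusted p was 0.11 for USP5 and 0.12 for USP15. Leaving out doxycycline plus interferon replicate 2 brought USP5 and USP15 under the threshold, with adjusted p of 0.022 and 0.046. With the GC and length trend removed, USP5 was called lower (−0.40, adjusted p 0.0085) and USP15 higher (0.29, adjusted p 0.046), against 4.05% of all genes. Without doxycycline plus interferon replicate 2 USP43 had 0.36, and without replicate 1 USP53 had 0.26, USP5 −0.30 and USP20 0.046; USP13 had −0.080 without interferon replicate 2 and −0.26 without interferon replicate 1.

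USP6 induction without interferon gave no call by either tool. In doxycycline cells against untreated cells, 0 of 47 members were called by edgeR and 0 by DESeq2, against 0.815% of all genes by edgeR. An unadjusted p under 0.05 was found for 5 members and for 1993 of all 14601 genes. USP53 (0.37 ± 0.12), USP33 (0.31 ± 0.10) and USP44 (0.25 ± 0.14) stood highest, and USP20 (−0.40 ± 0.24), USP5 (−0.34 ± 0.13) and USP43 (−0.34 ± 0.48) lowest. With 1 library left out USP20 ran from −0.66 (without doxycycline replicate 2) to −0.15 (without untreated replicate 1). With the GC and length trend removed 0 members were called, against 3.74% of all genes. No member lay outside the middle 90% of all genes, which ran from −0.55 to 0.49.

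Interferon alone gave no call among the members at the same threshold, with 0 of 47 by edgeR against 2.12% of all genes. An unadjusted p under 0.05 was found for 5 members and for 1700 of all 14601 genes. USP25 came nearest, with a log2 fold change of 0.39 ± 0.09 in interferon cells against untreated cells and an edgeR adjusted p of 0.057. DESeq2 called it, as the only member, with an adjusted p of 0.018. Leaving out either doxycycline plus interferon library also brought it under the threshold in edgeR, with an adjusted p down to 0.027. Both interferon libraries of USP25 lay above both untreated ones. USP18 averaged 57.7 CPM in interferon cells and 8.08 CPM in untreated cells, a log2 fold change of 2.83 ± 0.15. The next members were USP44 (0.29 ± 0.14) and USP40 (0.28 ± 0.10), and the lowest were USP43 (−0.77 ± 0.52), USP51 (−0.39 ± 0.22) and USP1 (−0.29 ± 0.14). USP1 ran from −0.44 without untreated replicate 1 to −0.12 without untreated replicate 2. With the GC and length trend removed, USP25 was called higher (0.32, adjusted p 0.0044) and USP1 lower (−0.35, adjusted p 0.036), against 6.69% of all genes. The members' median was 0.00 and that of all genes −0.01.

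The interaction term asks whether the change with interferon differed between induced and uninduced cells. No member was called by edgeR or by DESeq2, against 0.171% of all genes by edgeR. An unadjusted p under 0.05 was found for 287 of all 14601 genes and for 2 members. These were USP15, with a log2 difference of 0.35 ± 0.15, and USP43, with 1.56 ± 0.69. The third by value was USP49 (0.31 ± 0.35), and the lowest were USP44 (−0.29 ± 0.20), USP30 (−0.24 ± 0.16) and USP51 (−0.22 ± 0.31). USP43 had 0.71 and USP49 0.085 without doxycycline plus interferon replicate 2, and USP51 had −0.022 without replicate 1; USP44 had −0.18 without interferon replicate 1. For USP25 the difference was 0.09 ± 0.13, from 0.0078 to 0.18 with 1 doxycycline library left out, with log2 changes for interferon of 0.48 in induced cells and 0.39 in uninduced cells, so a call in induced cells alone is not shown to be a difference between them.

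The other deubiquitinase families served as the surrounding pathway. Of 43 such genes with a row, 40 were tested, and with both treatments against none 6 rose and 1 fell, against 13.9% of all genes. TNFAIP3, also called A20, the inhibitor of NF-kB from the OTU family, rose most, with 7.56 and 9.12 CPM in doxycycline plus interferon cells, 2.002 and 2.125 CPM in doxycycline cells, 1.99 and 1.63 CPM in interferon cells, and 1.14 and 1.52 CPM in untreated cells. Its log2 fold change was 2.63 ± 0.27 with an edgeR adjusted p of 8e-05, larger in value than that of any tested member. STAMBPL1, a protease that cuts lysine 63-linked chains, had 0.85 ± 0.17, and CYLD, a tumour suppressor with a USP fold that also inhibits NF-kB, had 0.62 ± 0.11. The other 3 that rose were FAM188A (0.56 ± 0.11), OTUD4 (0.45 ± 0.11) and VCPIP1 (0.42 ± 0.12), and OTUD3 fell by 0.41 on the log2 scale. DESeq2 called the same genes apart from VCPIP1. TNFAIP3 and CYLD kept this call without any 1 library. STAMBPL1 and OTUD4 lost it without doxycycline plus interferon replicate 1 or untreated replicate 1 (down to log2 fold changes of 0.69 and 0.33), FAM188A without untreated replicate 2 (adjusted p 0.056), OTUD3 without doxycycline plus interferon replicate 1 or either untreated library (adjusted p up to 0.08), and VCPIP1 without any library but doxycycline replicate 1 (up to 0.19).

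The CYLD libraries divided by doxycycline. This gene had 56.5 and 51.5 CPM in doxycycline plus interferon cells, 48.3 and 47 CPM in doxycycline cells, 32.1 and 32.3 CPM in interferon cells, and 35.0 and 35.2 CPM in untreated cells. STAMBPL1 had 35.9 and 29 CPM in doxycycline plus interferon cells, 19.2 and 16.6 CPM in doxycycline cells, 19.1 and 22.4 CPM in interferon cells, and 16.1 and 20.04 CPM in untreated cells. In doxycycline plus interferon cells against interferon cells TNFAIP3 (2.20) and CYLD (0.75) were called higher, and against doxycycline cells TNFAIP3 (2.01) and STAMBPL1 (0.86) were, 2 of 40 in each, beside 1.34% and 3.33% of all genes. In the first of these, the call of TNFAIP3 was lost without interferon replicate 2 (adjusted p 0.061) and that of CYLD without doxycycline plus interferon replicate 1 or either interferon library (up to 0.11); in the second, that of STAMBPL1 was lost without doxycycline plus interferon replicate 1 or doxycycline replicate 2 (up to 0.15). With interferon alone, with doxycycline alone and in the interaction 0 of the 40 were called by edgeR or by DESeq2. The shares of all genes by edgeR were 2.12%, 0.815% and 0.171%. In the same order 4, 4 and 2 had an unadjusted p under 0.05 by edgeR, beside 1700, 1993 and 287 of all 14601 genes. Of 9 USP cofactors, WDR48, the activator of USP1, USP12 and USP46, rose with both treatments by 0.44 ± 0.10 against none, a call lost without doxycycline plus interferon replicate 1 or untreated replicate 1 (adjusted p up to 0.11). That 1 of 9 stood beside 13.9% of all genes. Of 4 ubiquitin precursor genes 0 were called by edgeR or DESeq2. With both treatments against none 1 of them had an unadjusted p under 0.05, beside 4398 of all 14601 genes.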

How the data were processed

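Total RNA had been extracted with trizol and made into stranded total RNA libraries, per the labels' protocols. The authors deposited raw read counts per transcript row; the submitters' processing notes name CASAVA 1.8.2, edgeR and the hg19 build. The aligner and the counter, and whether strand was used, are not given in the sources at hand. The table also holds a deposited column that marks 1 row per symbol; its values are flags on no numeric scale, and the marked row served as an alternative. One row per symbol, the one with the highest total, entered library sizes and tests.

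edgeR 4.0.16 (R 4.3.3) filtered genes with filterByExpr, scaled by TMM and fitted all 4 groups together without a block (glmQLFit, glmQLFTest; 4 residual degrees of freedom; Benjamini-Hochberg adjustment over 14601 genes; called at an adjusted p under 0.05). An SE is the log2 fold change divided by the root of F. CPM are on library sizes scaled by the TMM factors. DESeq2 1.42.0 was the other count test. The fit was tested on simulated data. The GC and length offset was a loess trend (span 0.3) per library. Named are members called in any comparison, the 3 highest and 3 lowest per comparison at a mean of 1 CPM or more, the 2 with the highest level per kilobase in each role, and the called genes of other lists. Members and lists were chosen with earlier results of these data known. Replicate numbers are in the labels, which do not say that a number marks a shared batch. USP33, USP48, USP2 and USP19 had several rows that differed by more than 5%, the lowest row holding 75.3, 49.1, 90.2 and 94.9% of the highest.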

Additional observations from a re-analysis of the deposited data

How the results depend on the processing

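The members called were recounted under each alternative. Under the GC and length offset 21.6% of all genes were called with both treatments against untreated, 10.1% against doxycycline and 4.05% against interferon. With interferon against untreated it was 6.69%, and with doxycycline against untreated 3.74%. In the robust form of the offset these shares were 19.2, 9.63, 3.9, 5.79 and 3.54%, in the same order. For the other alternatives the share of all genes is not given here. With doxycycline plus interferon against untreated, 6 as reported, the GC and length offset gave 12, alone or with the replicate block, and its robust form 11. With doxycycline plus interferon against doxycycline, 2 as reported, the offset gave 5, with or without the block, and the robust form 4. With doxycycline plus interferon against interferon, 0 as reported, DESeq2 and the fit without a filter gave 1 each, the offset 2, the offset with the block 3 and the robust form 3. With interferon against untreated, 0 as reported, DESeq2, the stricter filter, the fit of only the groups compared and the robust offset gave 1 each, USP25, and the offset gave 2 with or without the block. With doxycycline against untreated, 0 as reported, the offset with the block and the robust offset gave 1 each. The robust form of the offset was chosen after seeing the data, because the ordinary form moved the median of all genes. Why the counts differed was not tested.

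The replicate block alone called 5 members with both treatments against untreated (USP40 was not called), 2 with both treatments against doxycycline and 0 in the other comparisons. The replicates' differences correlated at 0.45 between the doxycycline groups, 0.34 between interferon and untreated, and −0.12 to −0.35 between groups with and without doxycycline. The labels tie no number to a shared batch, so the numbers were not taken as pairs in either order. A crossed replicate block was chosen after seeing the data. It called 5 members with interferon against untreated, 5 with doxycycline against untreated and 6 with both against doxycycline. It also called 5 with both against interferon, 0 in the interaction and 19 with both against untreated. The shares of all genes called under either block are not given here, so these counts allow no reading about the members.

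With 1 library left out the counts ran from 0 to 1 with interferon against untreated, 0 to 2 with both against doxycycline, 0 to 2 with both against interferon and 2 to 9 with both against untreated; the last was 2 without doxycycline plus interferon replicate 1 or either untreated library, and 3 without interferon replicate 2. Over 76 single-gene values, 25 of 1508 alternative values changed sign, none of them called. Under the offset these were USP15 with doxycycline against untreated (−0.086, −0.087 with the block and −0.075 in the robust form), USP53 with interferon against untreated (−0.0029 and −0.0036 with the block), USP4 with both against untreated (−0.00094 and −0.00025 with the block), and, in the robust form, USP20 with both against untreated (0.024) and USP5 with interferon against untreated (0.0041). With 1 library left out, the ranges that crossed 0 were −0.0504 to 0.11 (USP15, doxycycline against untreated), −0.57 to 0.046 (USP20, both against interferon), −0.46 to 0.045 (USP11, both against untreated), −0.045 to 1.38 and −0.40 to 1.02 (USP43, both against doxycycline and against untreated), −0.44 to 0.0072 and −0.049 to 0.23 (USP5 and USP53, both against doxycycline), and −0.13 to 0.048, −0.39 to 0.051 and −0.10 to 0.18 (interaction of USP40, USP5 and USP53). The floor in CPM covers counting error only, while each SE also holds the spread between libraries, and 2 libraries a group limit the precision.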
